A study of Mus musculus with 28 samples.

Results

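The ERVK superfamily of endogenous retroviruses held 143 of the 539 repeat families measured in mouse germ cells, and 113 of them were neither IAP, MMERVK10, RLTR10 nor ETn. These 113 remaining ERVK families were taken by name alone: every ERVK family was kept unless its name began with IAP, MMERVK10 or RLTR10 or contained ETn. Their choice used no measured value. They comprised 94 long terminal repeat (LTR) families and 19 internal regions, which are the stretches between the LTRs where the retroviral genes lie. By the stem of the name they formed 41 groups, led by RLTR13 with 15 families and RLTR9, RLTR20 and RMER17 with 8 each, and 17 groups held 1 family only. Together the 113 families counted 191703 genomic elements, with a median of 1237 elements per family.

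The germ cells were SSEA1+ primordial germ cells (PGCs, the precursors of eggs and sperm) sorted by flow cytometry from mouse gonads at E13.5, counted in days of embryonic development. In each sex there were 4 genotypes of Setdb1, which encodes a histone H3 lysine 9 methyltransferase: WT (flox/+), Het1 (delta/+), Het2 (flox/-) and KO (delta/-). RNA-seq had 1 WT library and 2 libraries each of Het1, Het2 and KO per sex, so that Het1 and Het2 together gave 4 Het libraries against 2 KO libraries. All Het and KO embryos carried at least 1 altered Setdb1 allele (delta, - or flox), and WT embryos carried a flox allele. Which Cre made the delta allele, and how many embryos went into a library, is not given in the sources used here, and p-values therefore measure the spread between libraries, which may be technical. ChIP-seq for H3K9me3 and H3K27me3 had 1 library per sex in Het (flox/-) and in KO, and total H3 was measured in 1 library of male PGCs whose genotype is given as wild-type C57BL/6, not flox/+.

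ERVK elements are relatives of the betaretroviruses that entered the rodent germ line as infections and were then copied as transposable elements. Most copies are now solitary LTRs, and an LTR can act as a promoter or enhancer. In mouse cells SETDB1 is brought to such copies by TRIM28 and KRAB zinc finger proteins and deposits H3K9me3, a mark of silent chromatin. IAP and ETn elements are the ERVK families best known for recent mobility. Germ cells at this stage have lost most of their DNA methylation, which makes histone marks at repeats of particular interest. H3K27me3, the Polycomb mark, is another mark of silent chromatin.

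Values are RPKM, the reads over all copies of a family per kilobase, scaled to the reads of the library, and the numbers of reads behind them are unknown. A family's RNA value also holds reads of any transcript that runs through a copy. In bulk libraries, fewer cells with a transcript and less RNA per cell cannot be told apart. The repeat level of whole libraries differed: the median RPKM over the 113 families lay between 0.11 and 0.13 in the 4 Het libraries numbered 1, between 0.167 and 0.26 in the 4 Het libraries numbered 2, between 0.17 and 0.21 in the KO libraries numbered 1, and between 0.198 and 0.22 in those numbered 2. The table as a whole was shifted: over all 528 families tested the median log2 difference of KO from Het was 0.29 in males, 0.05 in females and 0.17 over both sexes. Over the 113 families it was 0.27, 0.09 and 0.18. Of the 14 RNA libraries in the table, 4 male ones (WT replicate 1 and the libraries numbered 2 of Het1, Het2 and KO) were deposited with 3 decimals and the other 10 with 2.

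**Figure D1:**
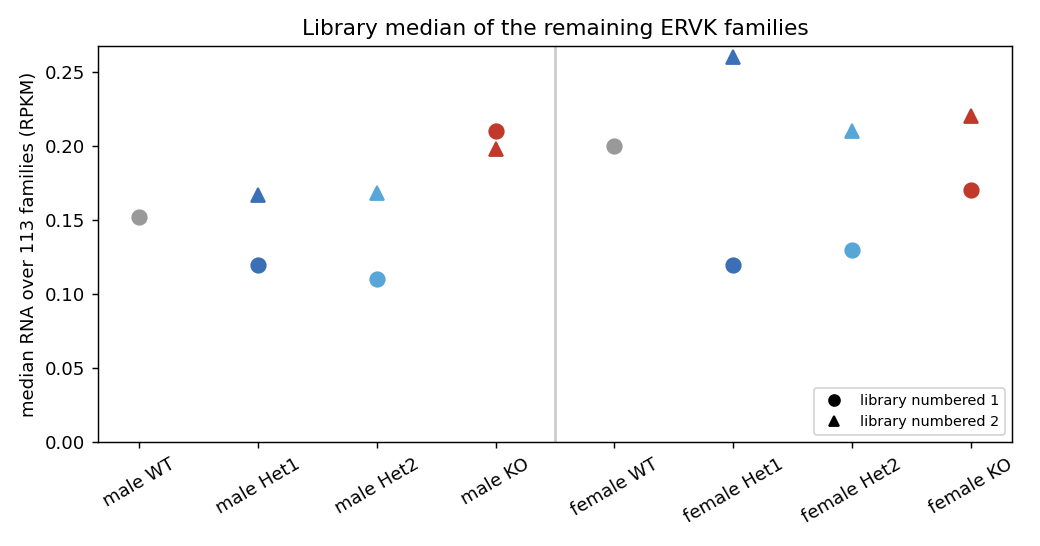
Median RNA level over the 113 families (y axis, RPKM) in each of the 14 RNA libraries by sex and genotype (x axis), with circles for libraries numbered 1 and triangles for those numbered 2. Het libraries numbered 1 sit at 0.11 to 0.13, below the Het libraries numbered 2 (0.167 to 0.26) and the KO libraries (0.17 to 0.22).

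Setdb1 RNA checked the genotypes. It was 46.1 ± 6.25 RPKM (SD, n = 4) in male Het and 29.2 ± 2.89 (n = 2) in male KO, and 45.7 ± 9.05 (n = 4) in female Het and 33.0 ± 2.38 (n = 2) in female KO. KO was below all Het libraries in each sex, and the difference over both sexes (log2 -0.54, SE 0.13) missed the threshold (limma adjusted p = 0.0783). None of the 21 tested genes of a list of 22 silencing factors, among them Trim28, the Cbx genes of heterochromatin protein 1 and the DNA methyltransferases, passed the test in any KO contrast. Few genes passed at all: of 13518 tested, 141 did over both sexes, 83 in males and 55 in females. Germ cell markers were high: 7 of them summed to 1884 to 2308 RPKM in male Het and 1984 to 2184 in male KO, and to 1354 to 1784 in female Het and 943 to 1287 in female KO, with 0 of the 7 past the test. Of 5 Leydig cell markers, 4 rose in male KO by limma, beside 83 of all 13518 genes called in males. The 4 included Cyp17a1, a steroid hydroxylase, at 11.0 ± 3.25 RPKM (n = 2) against 0.290 ± 0.393 (n = 4). The 5 markers together summed to 26.9 to 56.1 RPKM in male KO against 3.42 to 5.32 in male Het, while in females the sums overlapped (5.61 to 6.08 in KO, 4.88 to 12.1 in Het). For scale, the same 5 summed to 674 RPKM in 1 library of male C57BL/6 gonadal soma. Over 32 markers of Sertoli, Leydig, pregranulosa, stromal, endothelial, macrophage and erythroid cells, both KO libraries stood above all 4 Het libraries in 9 in males, in 8 in females and in 3 in both sexes, beside 9.01%, 14.8% and 3.06% of all genes tested. The 3 were the stromal genes Pdgfra (2.8 and 3.49 RPKM in male KO, at most 2.15 in male Het; 5.42 and 7.92 in female KO, at most 4.68 in female Het) and Nr2f2 (8.32 and 9.75, at most 7.07; 14.2 and 14.9, at most 8.93), and the endothelial gene Kdr (4.46 and 6.23, at most 3.07; 6.84 and 10.7, at most 6.77), named after their values were seen. They were 2 of 5 stromal and 1 of 4 endothelial markers. Of the others, Pecam1 had lower means in KO of both sexes (34.1 against 35.9 RPKM in males, 23.7 against 40.7 in females). Pecam1 does not set soma apart from germ cells here. It was at 44.9 RPKM in 1 library of male C57BL/6 PGCs and at 3.77 in 1 of gonadal soma. Tek (0.47 against 0.782) and Col1a1 (3.64 against 4.04) had lower means in male KO and higher means in female KO. Dcn, Col3a1 and Cdh5 had higher KO means in both sexes, with libraries overlapping Het. Summed, the 32 ran from 91.6 to 148 RPKM in male Het and from 136 to 227 in male KO, and from 109 to 344 in female Het and from 149 to 211 in female KO. These sums include Pecam1. The 344 came from 1 library in which the erythroid markers summed to 257 RPKM. By cell type, only the Leydig sums were apart in males. In females only the Sertoli sums were, at 51.8 to 57.3 RPKM in KO and 21.25 to 41.5 in Het. Of these, Cldn11 alone was at 36.4 and 42.5 RPKM in KO and at most 27.3 in Het. The part of these cell types in the repeat values below was not tested, since repeat values of gonadal soma were not analysed here.

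H3K9me3 in control germ cells differed widely between the families. In Het males it ran from 0.09 RPKM (RLTR18-int) to 1.38 (RLTR44-int), with a median of 0.3, and in Het females from 0.12 to 1.37, with a median of 0.38. The median over all 539 families was 0.18 in males and 0.23 in females. The 5 families with the highest level were RLTR44-int (1.38 in males, 1.27 in females), RLTR46 (1.26 and 1.37), RLTR44A (1.25 and 1.26), RLTR27 (1.21 and 1.25) and RLTR44B (1.05 and 1.07). Thus RLTR44 gave an internal region and 2 of its LTRs to this leading set.

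Among name groups of 2 or more families, 3 carried the mark in every family. With a minimum of 0.5 RPKM in the Het or KO library of each sex, 37 of the 113 families were marked: all 5 RLTR44 families, all 8 RLTR9 families, both RLTR45 families, 12 of 15 RLTR13 families, 4 of 8 RMER17 families and 6 groups of 1 family (RLTR27, RLTR43A, RLTR46, MMTV-int, RNERVK23-int and RNLTR23). MMTV is the mouse mammary tumour virus, which exists both as an infectious virus and as inherited copies. RLTR9 LTRs are known as binding sites of pluripotency factors in mouse embryonic stem cells, and RLTR13D5 LTRs are known as enhancers in trophoblast stem cells. The other 30 name groups, including all 8 RLTR20 and all 5 RMER6 families, had no marked family. Marked families were small, with a median of 592 elements against 1954.5 in the 76 other families.

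Total H3 did not follow this pattern (Spearman rho 0.05 with H3K9me3 in male Het over the 113 families). It lay between 0.12 and 0.26 RPKM across the 113 families and had a median of 0.2 in the marked families and 0.22 in the others. RLTR44-int, the richest in H3K9me3, had the lowest total H3 at 0.12 RPKM, so its H3K9me3 in male Het was 11.5 times its H3 level. The same ratio was 6.05 for RLTR27, 5.48 for RLTR46 and 0.529 for RLTR18-int. These ratios set libraries of different genotype and strain side by side. The order of the families was nearly the same in both sexes (Spearman rho 0.99 between male and female Het over 113 families, as a description of 2 libraries scaled alike).

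At most of the marked families H3K9me3 was somewhat lower in KO germ cells. By the rule used here, a difference of 2-fold in the same direction in both sexes on RPKM + 0.1, 0 of the 37 families were called, and so were 0 of all 102 families with the mark (0%). The level was lower in KO in both sexes at 34 of the 37, beside 87.3% of all 102 marked families. The median KO level was 87.3% of Het in males and 81.7% in females over the 37, and 112% and 103% over the 76 unmarked families. RPKM is relative to the library's own total, so a loss shared by the whole genome would not show. With 1 library per sex and genotype there is no test within a sex.

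The 5 families with the largest loss in the sex where they lost less were RLTR44-int and 4 LTRs of the RLTR9 and RLTR13 groups. RLTR44-int had 1.38 RPKM in male Het and 1.03 in male KO, and 1.27 in female Het and 0.93 in female KO. In RLTR9D the male values were 0.79 in Het and 0.62 in KO, and the female values 0.89 and 0.63. RLTR9B2 had 0.65 and 0.51 in males and 0.81 and 0.6 in females. RLTR9B and RLTR13B2 completed the set, with log2 differences of -0.29 and -0.39 in males and -0.42 and -0.28 in females. Among the RLTR9 families the median log2 difference was -0.26 in males and -0.42 in females. A high level did not go with a large loss in every family: RLTR46 kept 1.24 of 1.26 RPKM in males and 1.12 of 1.37 in females. RLTR13D5 was the only marked family higher in KO in both sexes (0.47 to 0.51 RPKM in males, 0.6 to 0.65 in females). In males it reached the minimum of 0.5 RPKM through its KO value alone, so the rule itself favoured a rise there. It was singled out after its values were seen.

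Fitting the 4 libraries with limma, with sex as a term, called 5 of the 37 families lower (RLTR9A2, RLTR9B, RLTR9B2, RLTR9D and RLTR44-int), beside 20.6% of all 102 families. The error in that fit is the difference of the KO effect between the sexes, from 1 library each, drawn towards a spread shared by all 102 families. For RLTR44-int the log2 difference was -0.40 (SE 0.14, limma adjusted p = 0.0365).

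**Figure D2:**
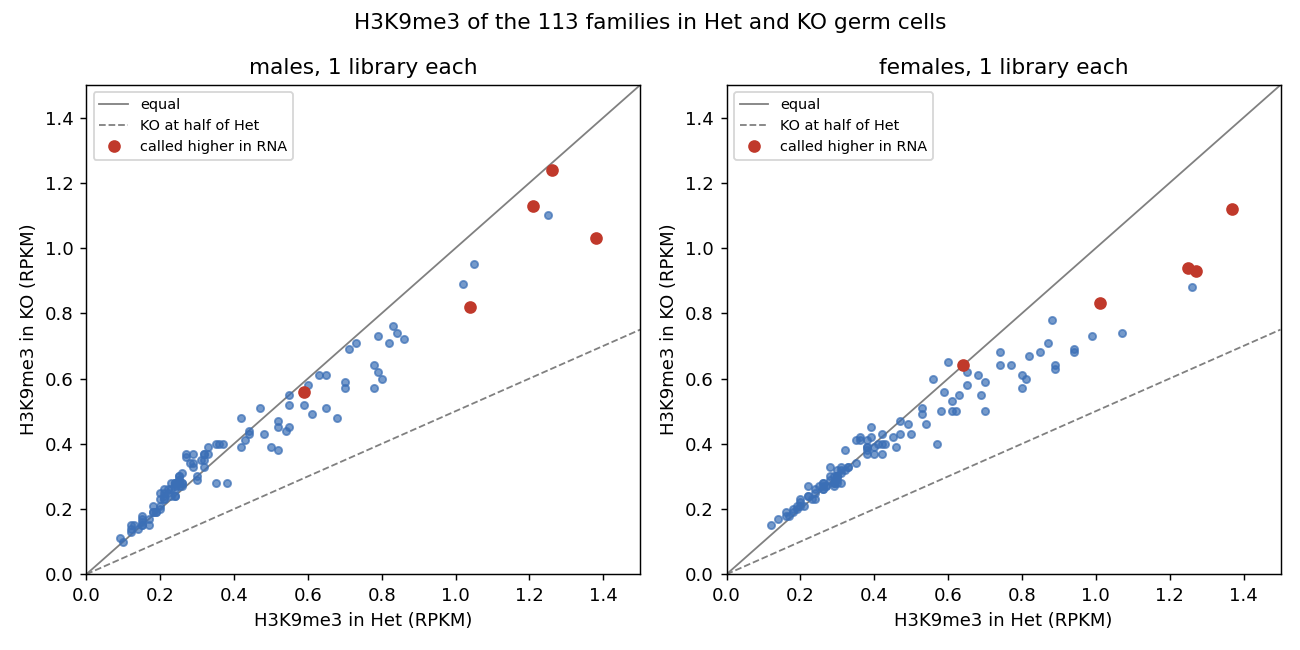
H3K9me3 in KO (y axis, RPKM) against Het (x axis, RPKM) for the 113 families, males on the left and females on the right, 1 library each, with lines for equal levels and for a 2-fold loss; the 5 families called higher in RNA are red. Families at the right mostly lie below the line of equal levels, and none reaches the 2-fold line.

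H3K27me3 followed the order of H3K9me3. Across the 113 families the Spearman rho between the marks in Het was 0.89 in males and 0.91 in females, where both values come from the same kind of cells, the same copies and the same scaling. The 5 families richest in H3K27me3 were the same 5 that led for H3K9me3: RLTR46 (0.8 RPKM in males, 0.78 in females), RLTR27 (0.79 and 0.74), RLTR44A (0.8 and 0.72), RLTR44B (0.74 and 0.69) and RLTR44-int (0.8 and 0.66). Only 17 families reached 0.5 RPKM in both sexes. None of them differed 2-fold (0 of 17, beside 0% of 66 families in all), while 16 were lower in KO in both sexes, beside 98.5% of the 66. Limma over the 4 libraries called 12 of the 17 lower, beside 72.7% of the 66. Median KO levels of the 17 were 77.6% of Het in males and 87.2% in females, so here the males had the lower ratio, whereas for H3K9me3 the females did. The whole table had the same order: 77.1% and 84.8% over the 66, and for H3K9me3 87.1% and 77.7% over all 102 marked families. This difference between sexes was not tested.

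RNA of the 113 families was low in every library. No value passed 0.81 RPKM, and all 113 passed the filter for testing (0.1 RPKM or more in at least 2 of the 12 Het and KO libraries). The highest in Het was RLTR19-int, at 0.596 ± 0.0891 RPKM (SD, n = 4) in males and 0.507 ± 0.123 (n = 4) in females. RMER4A, RMER6A, MurERV4-int and RLTR42-int followed, with means over the 8 Het libraries of 0.476, 0.419, 0.387 and 0.373 RPKM. Each of these 5 families had H3K9me3 of 0.13 to 0.25 RPKM in male Het, below the median of the 113, and none passed the test in KO (log2 differences over both sexes of 0.02 to 0.14, limma adjusted p of 0.734 to 0.941). Neighbours in this order overlapped: the Het libraries of RMER4A ran from 0.3 to 0.81 RPKM and those of RMER6A from 0.3 to 0.66. Marked families were lower in RNA, with a median Het mean of 0.1 RPKM in males and 0.122 in females, against 0.178 and 0.216 in the unmarked.

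In KO, 5 of the 113 families rose and 0 fell over both sexes (limma, Benjamini-Hochberg over 528 families, adjusted p under 0.05), beside 6.82% of all families tested. The share was thus no higher than in the whole table. They were the LTRs RLTR27, RLTR13A2, RLTR13D3 and RLTR46 and the internal region RLTR44-int. All 5 were among the 37 families marked by H3K9me3, as were 35 of the 36 families called in the whole table. Of the marked families, 5 of the 37 were called, and 30 of the 65 outside this set. No KO value of these 5 families passed 0.67 RPKM.

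RLTR27 was at 0.09, 0.082, 0.09 and 0.078 RPKM in the male Het libraries and at 0.21 and 0.16 in male KO. In females it was at 0.08, 0.14, 0.07 and 0.11 RPKM in Het and at 0.26 and 0.21 in KO. Every KO library stood above every Het library of its sex, and the WT libraries lay within the range of Het at 0.081 (male) and 0.09 (female). Over both sexes RLTR27 rose by log2 0.69 (SE 0.16, limma adjusted p = 0.00361), with 0.62 in males and 0.75 in females. It kept its call without any 1 of the 12 libraries (limma adjusted p of 0.00035 to 0.0408).

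RLTR13A2, a family of 167 elements, had the highest RNA of the 5. Its Het values were 0.25, 0.357, 0.23 and 0.278 RPKM in males and 0.33, 0.47, 0.24 and 0.42 in females, and its KO values were 0.47 and 0.651 in males and 0.49 and 0.67 in females. The groups did not overlap in either sex, although the female KO value of 0.49 was close to the Het value of 0.47. The log2 difference was 0.68 over both sexes (SE 0.21, limma adjusted p = 0.0369). The call was lost without any 1 of 7 libraries, namely male Het1 replicate 1, male Het2 replicates 1 and 2, both male KO replicates, female Het2 replicate 1 and female KO replicate 2 (limma adjusted p up to 0.323).

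RLTR13D3 separated in males only. Its male values were 0.09, 0.123, 0.08 and 0.112 RPKM in Het and 0.33 and 0.201 in KO, whereas in females Het had 0.09, 0.25, 0.17 and 0.17 RPKM and KO had 0.18 and 0.36, so that 1 KO library lay inside the Het range. The log2 difference was 0.64 over both sexes (SE 0.18, limma adjusted p = 0.0269), and the call was lost without male KO replicate 1 or female KO replicate 2 (limma adjusted p up to 0.408). The difference between sexes was -0.40 (female minus male, SE 0.37, limma adjusted p = 0.898).

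For RLTR44-int, male Het had 0.07, 0.11, 0.05 and 0.115 RPKM and male KO 0.18 and 0.184. Female Het had 0.06, 0.21, 0.12 and 0.21 RPKM and female KO 0.17 and 0.38. The groups were apart in males and overlapped in females. The log2 difference was 0.60 (SE 0.19, limma adjusted p = 0.0441). It lost its call without any 1 of 7 libraries: male Het1 replicate 1, male Het2 replicate 1, both male KO replicates, female Het1 replicate 1, female Het2 replicate 1 and female KO replicate 2 (limma adjusted p up to 0.637).

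RLTR46 had 0.13, 0.122, 0.1 and 0.099 RPKM in male Het and 0.31 and 0.16 in male KO. In female Het it had 0.15, 0.17, 0.14 and 0.14 RPKM, and both female KO libraries had 0.24. KO was above Het in every comparison of libraries within a sex. With a log2 difference of 0.53 (SE 0.17, limma adjusted p = 0.0441), its call held only without male KO replicate 2, female Het1 replicate 1 or female Het1 replicate 2, and was lost without any 1 of the other 9 libraries (limma adjusted p up to 0.546).

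**Figure D3:**
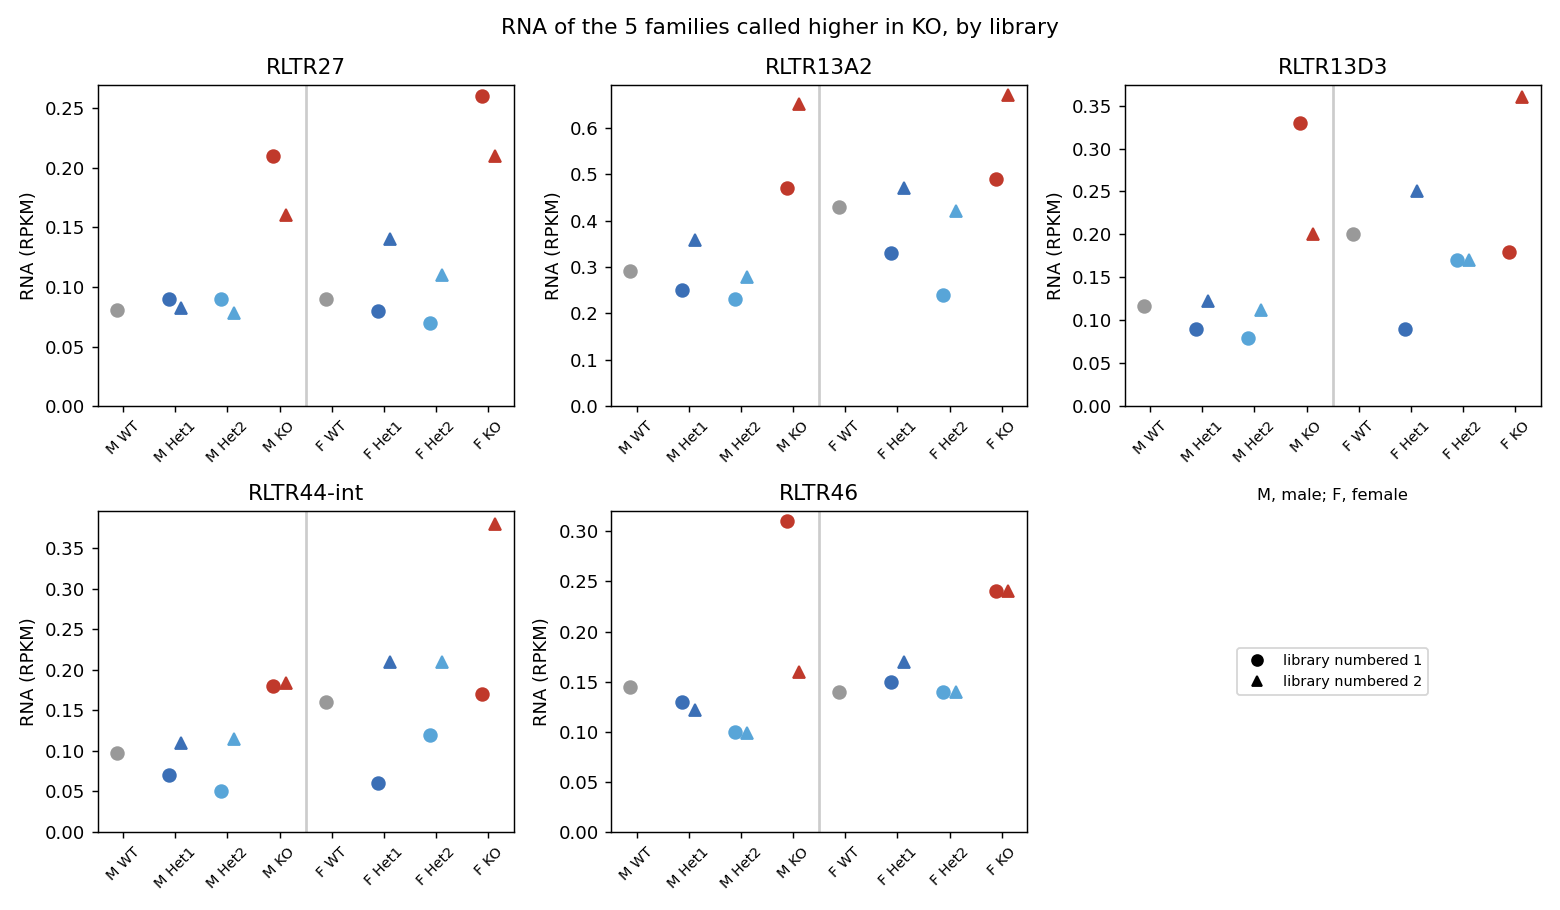
RNA level (y axis, RPKM) of the 5 families called higher in KO, in each library by sex and genotype (x axis; circles, libraries numbered 1; triangles, libraries numbered 2). KO points stand above all Het points of their sex in both sexes for RLTR27, RLTR13A2 and RLTR46, and in males only for RLTR13D3 and RLTR44-int.

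Over the 113 families, the number called depended on single libraries. It was 2 without male Het1 replicate 1, male Het2 replicate 1 or female Het2 replicate 1. It was 3 without male Het2 replicate 2 and 15 without female Het1 replicate 2. That last library had the highest median level of the Het libraries, 0.26 RPKM, and without it 56 of all 524 families tested were called. Leaving out any other Het library gave 21 to 33 of all 528. Leaving out a KO library leaves 1 in that sex, and the calls lost then are given above by family. Without male KO replicate 1 the median log2 difference was 0.15 over the 113 and 0.12 over all families tested. Without male KO replicate 2 it was 0.22 and 0.21. The values were 0.27 and 0.25 without female KO replicate 1, and 0.10 and 0.08 without female KO replicate 2. Relative to the shift shared by all families, the 5 differences were smaller: after centring each library on its median they were 0.48, 0.48, 0.44, 0.39 and 0.33 for RLTR27, RLTR13A2, RLTR13D3, RLTR44-int and RLTR46, and RLTR13A2 kept its call (limma adjusted p = 0.0337) while the other 4 did not (0.0548 to 0.353).

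Across families, the deviations of same-numbered libraries from their group means correlated (r of 0.10 to 0.54). Median levels did not move together by number in males. There Het was at 0.12 and 0.11 RPKM in number 1 and 0.167 and 0.168 in number 2, and KO at 0.21 and 0.198. A fit that took the replicate number as a block called 17 families, all higher, beside 13.3% of all families. It assumes the same shift between numbers in Het and KO of a sex, which these male medians did not show. They were the 5 above with RLTR13A, RLTR13D6, RLTR44A, RLTR44B, RLTR44E, RLTR45, RLTR45-int, RLTR9C, RLTR9D, RLTR9E, RLTR9F and RMER16-int. Of these 17, 16 were among the 37 marked families, beside 60 marked of 70 called in the whole table, and RMER16-int was at 0.38 RPKM of H3K9me3 in male Het and 0.4 in female Het. Within the same number, RLTR27 was higher in KO by log2 0.71 and 0.53 in males and by 1.04 and 0.47 in females (numbers 1 and 2). The median difference over the 113 families was 0.50 among male libraries numbered 1, 0.04 among those numbered 2, 0.21 in females numbered 1 and -0.02 in females numbered 2. With the block and centring together, RLTR27 and RLTR46 were called higher, beside 20 higher and 2 lower of all 528 families.

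The families added by the block are described by examples chosen after their values were seen. RLTR9C was at 0.06, 0.079, 0.05 and 0.067 RPKM in male Het and 0.1 and 0.145 in male KO, and at 0.04, 0.09, 0.04 and 0.09 in female Het and 0.11 in both female KO libraries. Its groups did not overlap in either sex (log2 0.40, SE 0.15, limma adjusted p = 0.114 without the block and 0.00826 with it). RLTR44A was at 0.19, 0.231, 0.11 and 0.189 RPKM in male Het and 0.27 and 0.236 in male KO, and at 0.12, 0.3, 0.12 and 0.25 in female Het and 0.31 and 0.34 in female KO. Its groups were also apart, by 0.005 RPKM in males (log2 0.46, SE 0.19, limma adjusted p = 0.211 without the block and 0.00626 with it).

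In all, both KO libraries stood above all 4 Het libraries in 45 of the 113 families in males (34.5% of all families), in 11 in females (9.47%) and in 9 in both sexes (7.01%). Those 9 were RLTR27, RLTR13A2, RLTR13D6, RLTR44A, RLTR45-int, RLTR46, RLTR9A, RLTR9C and MERVK26-int. Each of these shares of the 113 was close to that of the whole table, and 8 of the 9 families were marked by H3K9me3, beside 35 of 37 in the whole table.

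Within one sex no family passed the threshold without the block. In males limma called 0 of 113 (beside 2.46% of all families), with 9 at an unadjusted p under 0.05, and in females 0 of 113 (beside 1.89%), with 4 at an unadjusted p under 0.05. With the replicate block the counts were 7 in males (RLTR13A, RLTR13A2, RLTR13D3, RLTR27, RLTR44-int, RLTR46 and RLTR9F, beside 7.58%) and 5 in females (RLTR13A2, RLTR27, RLTR44A, RLTR44E and RLTR44-int, beside 6.44%). The difference between the sexes itself called 0 of the 113 (limma, 0% of all families; 0 of the 113 at an unadjusted p under 0.05). The log2 difference was 0.62 in males and 0.75 in females for RLTR27, 0.80 and 0.56 for RLTR13A2, 0.84 and 0.44 for RLTR13D3, 0.61 and 0.58 for RLTR44-int and 0.62 and 0.45 for RLTR46. These values stood beside the higher Leydig markers in male KO. They also stood beside Pdgfra, Nr2f2 and Kdr, the 3 of 32 somatic markers that were apart in both sexes. The part of these cell types was not tested.

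The size of the RNA difference went with the level of H3K9me3. Over the 113 families the Spearman rho between H3K9me3 in Het and the RNA difference was 0.46 in males and 0.65 in females, and between the H3K9me3 difference and the RNA difference -0.53 and -0.66. Over all 528 families tested the same values were 0.12 and 0.58, and -0.31 and -0.46. These are descriptions over families that share libraries, scaling and related sequence. The 37 marked families had a median log2 RNA difference of 0.31 over both sexes and the 76 unmarked 0.15, beside 0.17 over all families. The 65 marked families outside this set had 0.49. Above the median of all families stood 33 of the 37 and 33 of the 76, and 91 of all 102 marked families in the table. The mappability column of the table, whose definition is not stated, moved with both measures: over the 113 families its Spearman rho was 0.77 with H3K9me3 in Het and 0.61 with the RNA difference, and its median was 0.48 in the marked and 0.1 in the unmarked families. Its part in the relation was not tested. The marked families had the higher median in each of the 4 comparisons within a number: 0.54 against 0.48 and 0.22 against 0.02 in males, and 0.33 against 0.17 and 0.14 against -0.07 in females.

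**Figure D4:**
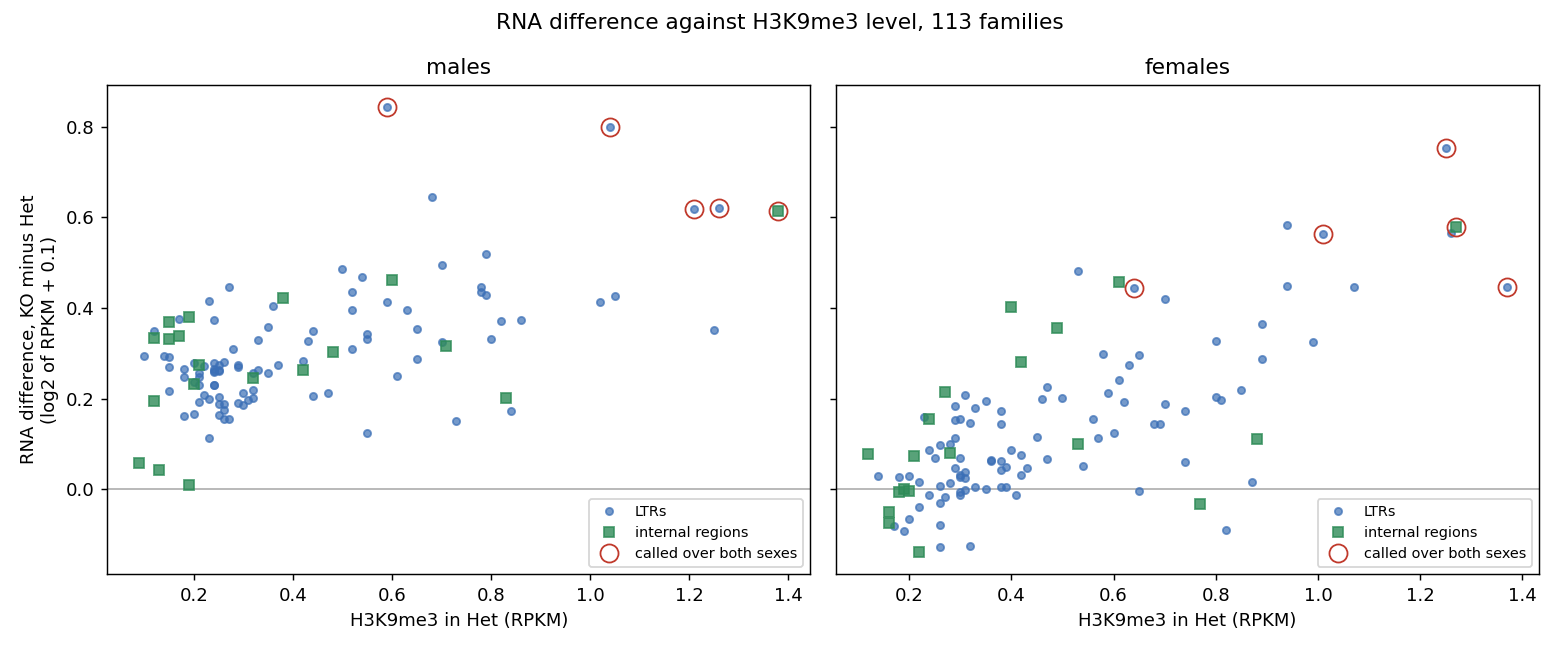
RNA difference of KO from Het (y axis, log2 of RPKM + 0.1) against H3K9me3 in Het (x axis, RPKM) for the 113 families, males on the left and females on the right; squares are internal regions and rings mark the 5 called families. Families with more H3K9me3 lie higher, more evenly in females (rho 0.65) than in males (rho 0.46).

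By name group, RLTR44 had the largest median difference among groups of 3 or more families, at 0.44 (5 families, 1 called), followed by RLTR9 at 0.37 (8 families, 0 called) and RLTR13 at 0.28 (15 families, 2 called). RMER17, in which 4 of 8 families were marked, had 0.24. The groups of 3 or more families with none marked ran from 0.08 in RLTR19 to 0.19 in RMER19. Among them RLTR20 had 0.17, BGLII, a family of mostly solitary LTRs, had 0.16 and RMER6 had 0.12. The RLTR13 group was the most spread, from RLTR13D5 at 0.17 to RLTR13A2 at 0.68. It also lost little H3K9me3 in females (median log2 difference -0.09) compared with males (-0.24), the opposite of RLTR9 (-0.42 and -0.26). That contrast of the sexes rests on 1 library each and was not tested.

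**Figure D5:**
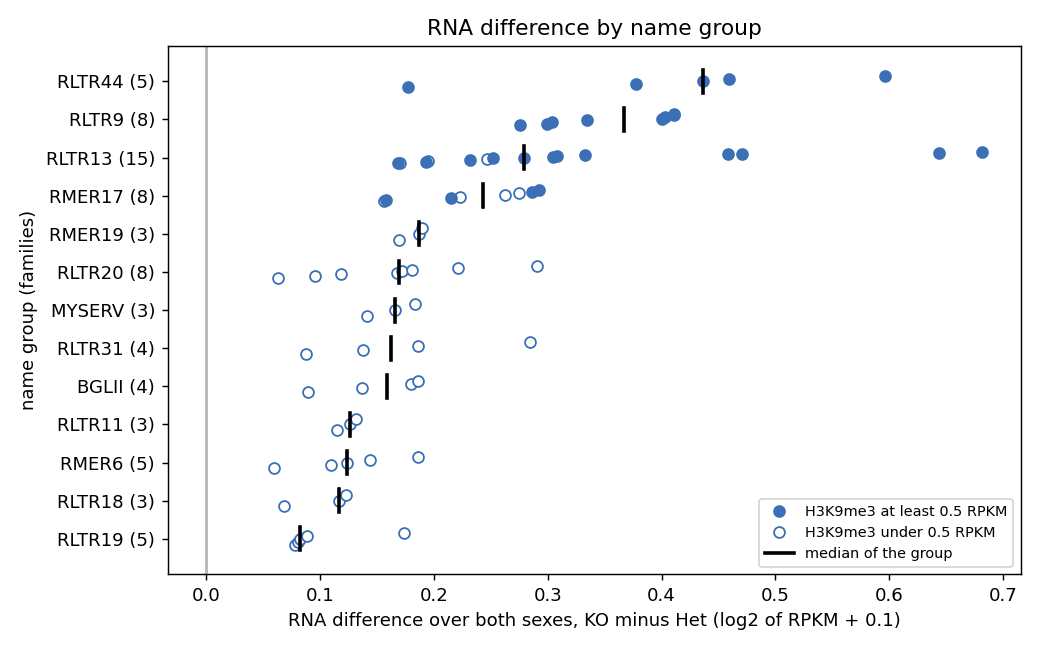
RNA difference over both sexes (x axis, log2 of RPKM + 0.1) of each family in name groups of 3 or more (y axis, number of families in brackets), filled where H3K9me3 reached 0.5 RPKM; bars are group medians. RLTR44, RLTR9 and RLTR13 lie furthest right with medians of 0.44, 0.37 and 0.28, and RLTR19 furthest left at 0.08.

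Of the 19 internal regions, 17 had a mean of 0.1 RPKM or more over the 12 libraries, and only RLTR44-int rose. With the replicate block RLTR45-int (log2 0.46) and RMER16-int (log2 0.41) rose too, at a limma adjusted p of 0.0043 and a limma adjusted p of 0.00826. RLTR45-int was at 0.11, 0.097, 0.07 and 0.131 RPKM in male Het and 0.15 and 0.206 in male KO, and at 0.09, 0.16, 0.07 and 0.12 in female Het and 0.2 and 0.17 in female KO. KO was above Het throughout, with the closest pair at 0.16 and 0.17 in females. The other 14 of the 17 had differences of 0.02 (RLTR42-int) to 0.26 (RMER17A-int). Among them the MYSERV regions MYSERV-int, MYSERV6-int and MYSERV16_I-int had 0.14, 0.17 and 0.18, near the median of all families. MMTV-int, marked at 0.71 RPKM in males, had 0.09, 0.161, 0.06 and 0.221 RPKM in male Het and 0.18 and 0.179 in male KO, inside the Het range. MurERV4-int, RLTR18-int, RMER3D-int, SRV_MM-int, MurERV4_19-int and RMER17C-int likewise gave no call.

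At the other end, the lowest differences over both sexes were those of RLTR42-int (0.02, SE 0.20), RMER12B (0.05, SE 0.19) and RMER6-int (0.06, SE 0.18). RLTR42-int ran from 0.28 to 0.46 RPKM over the 8 Het libraries and from 0.34 to 0.39 over the 4 KO libraries, inside the Het range. No family had a negative difference over both sexes, beside 511 of 528 families above 0 in the whole table.

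Between control germ cells of the 2 sexes no family passed the threshold (0 of 113 called by limma, 0% of all families; 1 at an unadjusted p under 0.05), and none did between Het1 and Het2 (0 of 113, 0%; 0 at an unadjusted p under 0.05). The number 1 and 2 libraries within each Het genotype spanned wide ranges, as in RMER4A (0.32 and 0.81 RPKM in female Het1).

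The ERVK families outside the set had higher medians in both readouts than the 113 as a whole. Median H3K9me3 in male Het was 2.03 RPKM over 16 IAP families, 1.3 over 9 MMERVK10 and RLTR10 families and 0.75 over 5 ETn families. It was 0.3 over the 113 and 0.7 over the 37 marked among them. In female Het the ETn median of 0.72 was below the 0.77 of the 37. Their median RNA differences over both sexes were 0.59, 0.66 and 0.71, beside 0.18 over the 113 and 0.31 over the 37. Of the IAP, MMERVK10 with RLTR10, and ETn families, 11 of 16, 7 of 9 and 2 of 5 rose, beside 5 of 113, all 5 among the 37. The median KO level of H3K9me3 in males was 87.9%, 82.6% and 68.0% of Het, beside 87.3% over the 37 marked families, and in females 77.1%, 74.6% and 71.3%, beside 81.7%. The differences between these sets were not tested.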

How the data were processed

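The deposited repeat table gives RPKM per family for RNA-seq and ChIP-seq libraries, made by the authors and used as deposited. Per the submitters' processing notes, mm9 was the genome build and BWA and SAMtools were the tools; how reads were counted and scaled, and what was done with reads of many matches, is not given in the sources used here. The deposited table also lists the number of elements per family and a mappability fraction of unstated definition; both are only described and entered no test. The ChIP values of promoters and the DNA methylation libraries were not analysed here.

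RNA was tested with limma 3.58.1 (lmFit, eBayes with trend; R 4.3.3) on log2(RPKM + 0.1), for families at 0.1 RPKM or more in at least 2 of 12 libraries. The fit had 4 group means with Het1 and Het2 pooled. P-values are two-sided and adjusted by Benjamini-Hochberg over 528 families, with a threshold of 0.05. WT libraries stayed outside. Genes were fitted alike on log2(RPKM + 1) at 1 RPKM or more. ChIP differences used RPKM + 0.1, a minimum of 0.5 RPKM in Het or KO of each sex, and a 2-fold rule. Depth is unknown, so no counting error can be given.

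The families named are those past the threshold, the 5 highest in Het RNA, H3K9me3 and H3K27me3, the 5 with the largest H3K9me3 loss (none passed the 2-fold rule), the 3 lowest RNA differences and internal regions at 0.1 RPKM or more. The members, lists, subgroups and settings were chosen with earlier results of these data known. The labels give groups the same replicate numbers without saying what they share. Across families, the deviations of same-numbered libraries from their group means correlated in all 12 pairs (r of 0.10 to 0.54). The 12 pairs are not independent, since the deviations of the KO libraries of a sex are equal and opposite. The replicate block is given beside the results it moves. Alternatives were other pseudocounts, filters, centring, quantile normalization, other controls, the block and leaving out each library.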

Additional observations from a re-analysis of the deposited data

Results flagged for a closer look

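RMER17C-int RNA in male Het2 replicate 1 stood apart from the other 3 male Het libraries, at 0.06 RPKM beside 0.097, 0.099 and 0.1. It was the 1 of 60 Het groups of the named families in which the gap to the nearest library exceeded Dixon's critical value, and chance gives about 1 in 20.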

How the results depend on the processing

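Depth is unknown and RNA levels lie near the rounding step of the table, which limits every RNA difference here; 1 ChIP library per sex and genotype limits the marks. Of the counts recomputed under alternatives, 84 of 118 were a 0 that stayed 0. The count of families higher over both sexes moved by more than 1.5 times under 16 of 24 alternatives. The 5 families higher over both sexes became 4 with a pseudocount of 1, 3 with 0.01, 5 without a filter, 1 with median centring, 2 with quantile normalization, 0 with Het1 alone as control, 4 with Het2 alone and 9 with WT added. In the same order, the 36 families higher in the whole table became 34, 26, 36, 18, 17, 9, 29 and 43. With the replicate block the counts were 17 over both sexes, 7 in males and 5 in females. Leaving out 1 Het library each gave 2 to 15 over both sexes, 0 to 1 in males and 0 to 1 in females. Beside them stood 21 to 56, 9 to 15 and 9 to 15 in the whole table. The female count was 1 with a pseudocount of 1 and 1 with WT added, beside 11 and 10 in the whole table. Chosen after seeing the data, the replicate block with median centring gave 2 over both sexes, 0 in males and 1 in females, libraries numbered 1 alone gave 85 of 107 and libraries numbered 2 alone gave 4. Each number alone leaves 1 KO library per sex. With number 1 the median log2 difference was 0.36 over the 107 families and 0.38 over all 485 tested. That rise was thus shared by the whole table. With number 2 the median was 0.02 over the 113 families and -0.04 over all 526 tested. The cause of these changes in the counts was not tested. No direction of the 5 families reversed; in 46 of 120 recomputations one lost its call. The 2-fold ChIP rule gave 0 for both marks at 1.5-fold, with a pseudocount of 0.5 and after centring, and limma with sex as a term called 5 for H3K9me3 and 12 for H3K27me3. A minimum of 1 RPKM left 6 families for H3K9me3 (0 called) and none for H3K27me3, and a filter at 1 RPKM left none for RNA. The planned comparison of soma with germ cells could not be run, since the repeat values used here include neither C57BL/6 RNA library.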
